A study of Homo sapiens with 12 samples.

Results

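The mRNA levels of 10 genes of telomerase and of the telomere coat were followed in 786-O cells, an established human line derived from a clear cell renal cell carcinoma (ccRCC). The genes were TERT, DKC1, NOP10, GAR1, TERF1, TERF2, TERF2IP, TINF2, ACD and POT1. They were chosen by symbol from a read-count table of 60448 genes, and each of the 10 was found in it. The cells had been transfected with small interfering RNAs (siRNAs), short double-stranded RNAs that direct the breakdown of a matching mRNA, and 3 libraries were sequenced for each of 4 groups. These were a control siRNA (siNC) and siRNAs against GABPA (siGABPA), an ETS transcription factor, GPD1L (siGPD1L), a relative of glycerol-3-phosphate dehydrogenase, and BRD9 (siBRD9), a bromodomain protein of a SWI/SNF chromatin-remodelling complex. All groups were grown in DMEM with serum according to the sample labels, whereas the methods of the study name RPMI-1640. The study describes this line as carrying a mutated TERT promoter and used GABPA siRNAs G1 and G2, without saying which was sequenced. The GPD1L and BRD9 siRNAs are named only in the sample labels. A figure legend of the study describes the sequencing of GABPA-depleted cells as coming from independent experiments. Whether the siGPD1L and siBRD9 libraries also came from separate transfections is not stated, so their spread may be technical. The p-values below measure the spread between the replicate libraries.

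Telomerase extends chromosome ends by copying a template in its RNA subunit TERC with the reverse transcriptase TERT. TERC ends in an H/ACA fold that is bound by dyskerin (DKC1), NOP10, NHP2 and GAR1, the proteins that also guide pseudouridylation of ribosomal RNA. Shelterin coats the double-stranded repeats through TERF1 (TRF1) and TERF2 (TRF2) and the single-stranded overhang through POT1. TINF2 (TIN2) joins the double-strand binders to each other and to ACD (TPP1), which holds POT1 and recruits telomerase, while TERF2IP (RAP1) rides on TERF2. In most somatic cells TERT is silent, and ETS factors, GABPA among them, and MYC are known regulators of its promoter.

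A library held between 19499090 and 29999290 counts, and the median total was 21691030 for siNC, 26976132 for siGABPA, 27755441 for siGPD1L and 22070520 for siBRD9. Levels are given below as CPM, the read count scaled to a common library size after TMM correction, which sets the bulk of genes equal between libraries. A gene is said to have risen or fallen at an FDR below 0.05, the p-value of the quasi-likelihood test in edgeR after Benjamini-Hochberg adjustment over every gene tested, and it is called a differentially expressed gene (DEG) where the fold change also exceeded 1.5. Fewer cells with an mRNA and less of it in each cell cannot be told apart in such bulk libraries. The siRNA targets were reduced as labelled. GABPA had 46.2 ± 4.41 CPM in siNC and 15.5 ± 1.31 in siGABPA (SD, n = 3), GPD1L went from 19.6 ± 0.66 to 6.65 ± 0.79 in siGPD1L, and BRD9 from 100.9 ± 1.90 to 25.3 ± 2.30 in siBRD9. GABPA was also lower in the other two groups, at 25.6 ± 0.53 CPM in siGPD1L and 27.3 ± 2.77 in siBRD9, with log2 fold changes of -0.85 (SE 0.06, FDR 8.25e-11) and -0.75 (SE 0.07, FDR 2.78e-08).

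Renal epithelial genes were present in the line, with PAX8 at 225.7 ± 6.66 CPM and KRT8 at 1035.0 ± 7.21 in siNC. The hypoxia marker CA9 had no count in siNC, the leukocyte gene PTPRC and the endothelial genes PECAM1 and CDH5 also had none there, and CD3E had none in any library. The hepatocyte marker ALB stood at 0.1003 CPM in siNC, whereas SERPINA1, listed with it, stood at 138.1 ± 3.00 CPM.

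All 10 genes passed the filter on low counts in each of the 6 comparisons between groups. A total of 9 of the 10 differed between the 4 groups in one test over the 12 libraries, against 83.7% of all 17005 genes, and TERF2 did not pass (FDR 0.052). Differences were therefore common in these libraries, and the counts of changed members have to be read against that background. Against siNC, 4 members were DEGs in siGABPA, all lower, where 36.5% of all genes tested were DEGs (21.3% higher and 15.2% lower). With single libraries left out their number ranged from 3 to 5, since TINF2 dropped out without siGABPA replicate 2 and TERF2IP joined, higher, without siGABPA replicate 1. In siGPD1L 2 members were DEGs, both higher, where 35.8% of genes were (20.4% higher and 15.5% lower). In siBRD9 TERT alone was a DEG, higher, where 28.2% of genes were (16.7% higher and 11.5% lower). At FDR below 0.05 alone there were 9, 8 and 9 members, against 72.7%, 71.6% and 67.3% of genes. The median log2 fold change over the members was -0.43 in siGABPA, where that of all genes tested was 0.02. It was -0.08 beside 0.01 in siGPD1L, and -0.20 beside 0.01 in siBRD9. These 3 comparisons share the siNC libraries.

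**Figure D1:**
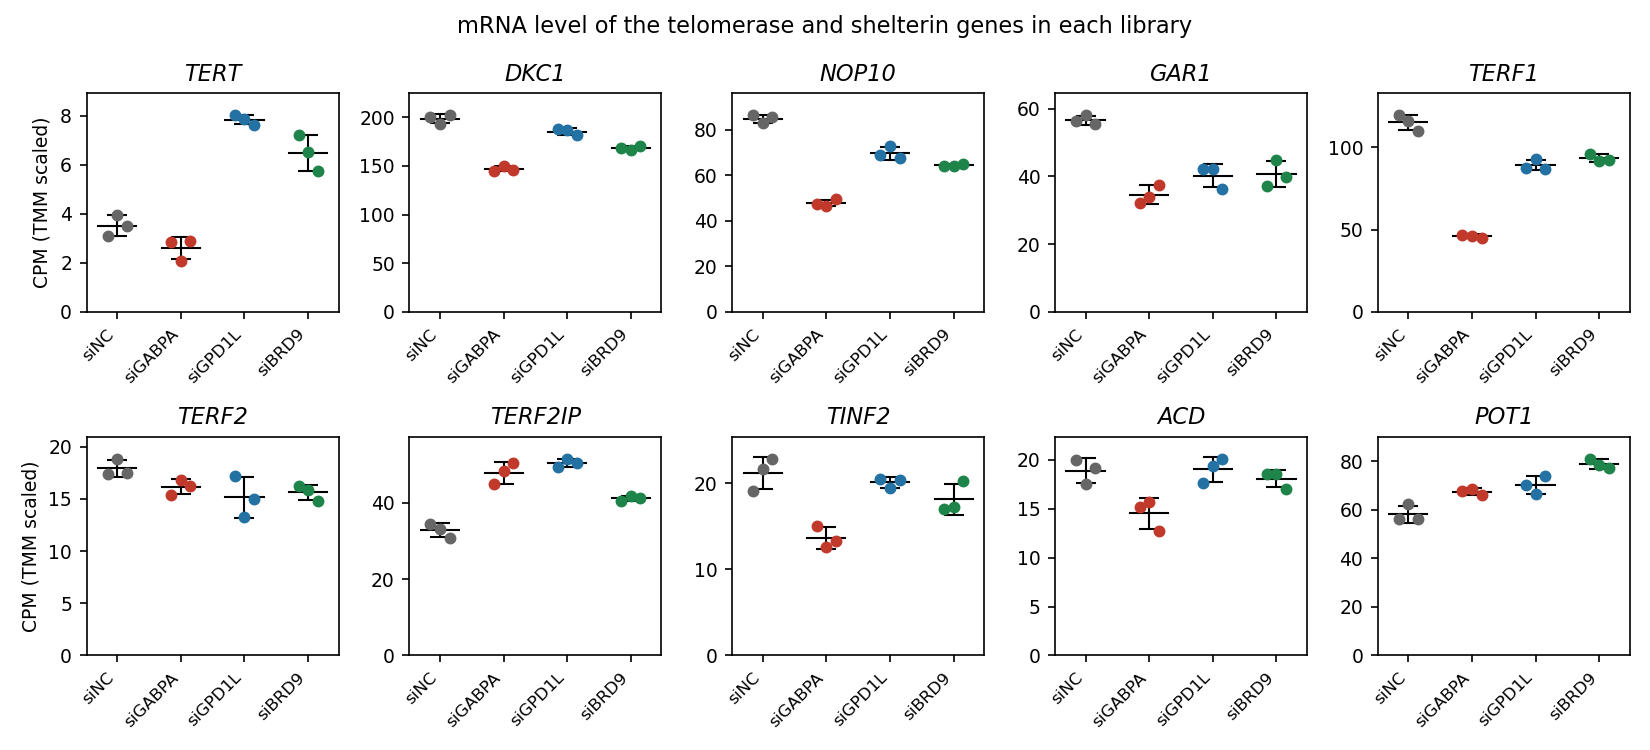
The mRNA level (CPM after TMM scaling, linear axes from 0) of each gene is plotted for the 3 libraries of each siRNA group as points, with the mean as a horizontal line and the SD as the error bar. TERT was above 5 CPM in every siGPD1L and siBRD9 library and below 4 CPM in every siNC and siGABPA library, whereas TERF1 was below 47 CPM in siGABPA only.

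TERT, the catalytic subunit, rose in siGPD1L and siBRD9 and fell slightly in siGABPA. The reads on TERT numbered 60, 79 and 78 for siNC, 83, 59 and 81 for siGABPA, 227, 232 and 217 for siGPD1L, and 217, 127 and 127 for siBRD9. Scaled to library size these counts came to 3.09, 3.97 and 3.50 CPM with siNC, 2.84, 2.08 and 2.90 with siGABPA, 8.01, 7.85 and 7.63 with siGPD1L, and 7.20, 6.50 and 5.74 with siBRD9. The siGABPA libraries all lay under the lowest of siNC, and the siGPD1L and siBRD9 libraries all lay over the highest.

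Against siNC the log2 fold change of TERT was 1.16 in siGPD1L (SE 0.13, 95% interval 0.91 to 1.41, FDR 4.85e-08) and 0.90 in siBRD9 (SE 0.14, 95% interval 0.62 to 1.18, FDR 1.68e-05), or 2.23-fold and 1.87-fold. Leaving out any library kept both calls. In siGABPA it was -0.43 (SE 0.18, 95% interval -0.78 to -0.09, FDR 0.0361), a fall to 74.1% of the siNC mean that did not reach the fold threshold. That call is lost with DESeq2 (FDR 0.0681), with library totals as the only scaling (log2 fold change -0.22, FDR 0.282), and without siNC replicate 2 (FDR 0.12), siNC replicate 3 (FDR 0.0546) or siGABPA replicate 2 (FDR 0.179). In siGABPA, 22.7% of the 16140 genes tested had a lower log2 fold change than TERT. The exact two-sided permutation test on log2(CPM + 2) gave p = 0.1 for each of these 3 comparisons, the smallest p that 3 libraries against 3 allow.

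The comparisons between targeting siRNAs do not use siNC. TERT was lower in siGABPA than in siGPD1L by -1.58 on the log2 scale (SE 0.13, FDR 2.56e-10) and lower than in siBRD9 by -1.32 (SE 0.15, FDR 7.88e-08). Between siGPD1L and siBRD9 the log2 difference was 0.26 (SE 0.11, 95% interval 0.05 to 0.48, FDR 0.0628), which did not pass the test, although the libraries did not overlap. It passed with library totals as the only scaling (FDR 0.0335) and without siBRD9 replicate 1 (FDR 0.032). TERT and TERF1 were the DEGs among the members in both siGABPA comparisons. Beside siGPD1L 15.4% of genes were DEGs (8.54% higher and 6.90% lower), and beside siBRD9 14.3% (8.52% higher and 5.74% lower). On FDR alone 7 and 9 members passed, where 54.1% and 53.2% of genes did. TERT and TERF1 also share a match to the seed of GABPA siRNA G2, positions 2 to 8 of its guide strand. The matching letters, AAGCATT, occur 1 time after the coding sequence of each, in no other member and in 17.6% of genes. The letters matching the seed of siRNA G1, AGATTGA, occur in no member and in 11.4% of genes. Any effect of these matches on the mRNA levels was not tested. No member was a DEG between siGPD1L and siBRD9 by edgeR, where 6.92% of genes were (4.01% higher and 2.91% lower), and 4 members passed the FDR alone, as did 39.3% of genes.

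By qPCR the study reported significantly lower TERT mRNA after GABPA siRNA G1, in this line and in another ccRCC line. B2M, the beta-2 microglobulin mRNA to which the study scaled its qPCR, was itself higher in all 3 targeting groups. It had 1214 ± 28.6 CPM with siNC, 3145 ± 49.2 with siGABPA, 2920 ± 67.6 with siGPD1L and 2949 ± 96.1 with siBRD9. Its log2 fold changes were 1.37, 1.27 and 1.29 (SE 0.02 to 0.03, FDR 4.8e-18, 2.81e-19 and 2.09e-17). A ratio to B2M therefore lies lower by about these amounts for every gene, and its sign against siNC says nothing about TERT alone. The log2 ratio of TERT to B2M, chosen as a scale after the values of B2M were seen, differed from siNC by -1.82 in siGABPA, -0.11 in siGPD1L and -0.40 in siBRD9, and the siGPD1L and siBRD9 libraries overlapped those of siNC. Between siGABPA and siGPD1L it differed by -1.70, close to the difference on the TMM scale.

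The RNA subunit of telomerase, TERC, had 1 count in 1 siBRD9 library and 0 in every other library, and a count of 0 allows up to 3 expected counts. Its level could not be compared between the groups. That limit covers counting error only, and not whether such an RNA entered the libraries, which was not examined. The TERT primers of the study's qPCR match exons 3 and 4 of the main TERT transcript and span 145 bases of it (GRCh38, chr5:1280235-1282469, minus strand), whereas the counts cover the whole gene, chr5:1253147-1295069. No annotated gene overlaps TERT.

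On the TMM scale the 3 H/ACA genes fell in all 3 targeting groups, with the lowest mean levels in siGABPA, although the small fall of DKC1 in siGPD1L depended on the processing. NOP10, a small scaffold next to dyskerin, had 86.2, 82.8 and 85.3 CPM with siNC, 47.5, 46.6 and 49.4 with siGABPA, 68.7, 72.8 and 67.4 with siGPD1L, and 64.0, 64.2 and 64.9 with siBRD9. No siGABPA library overlapped another group, and every targeting library lay below siNC. The log2 fold changes against siNC were -0.83 in siGABPA (SE 0.04, FDR 3.2e-12), -0.28 in siGPD1L (SE 0.04, FDR 6.02e-06) and -0.39 in siBRD9 (SE 0.04, FDR 7.45e-08).

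GAR1, which joins the complex late in its maturation, had 56.3, 58.0 and 55.4 CPM with siNC, 32.0, 34.0 and 37.6 with siGABPA, 42.2, 42.2 and 36.2 with siGPD1L, and 37.2, 44.9 and 39.8 with siBRD9. All targeting libraries lay below siNC, and the siGABPA libraries overlapped those of siGPD1L and siBRD9. Its log2 fold changes were -0.71 (SE 0.05, FDR 1.56e-09), -0.49 (SE 0.06, FDR 1.02e-07) and -0.47 (SE 0.06, FDR 7.02e-07) in siGABPA, siGPD1L and siBRD9.

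DKC1, the pseudouridine synthase, had 200.2, 193.2 and 202.0 CPM with siNC, 145.3, 150.2 and 146.1 with siGABPA, 187.5, 186.7 and 181.4 with siGPD1L, and 168.2, 166.4 and 170.5 with siBRD9. The 4 groups did not overlap. The fall was -0.43 on the log2 scale in siGABPA (SE 0.03, FDR 1.01e-09), -0.23 in siBRD9 (SE 0.04, FDR 1.15e-05) and -0.09 in siGPD1L (SE 0.03, FDR 0.0196). The value in siGPD1L turned to 0.08 with library totals as the only scaling. Its call was also lost with no filter beyond 1 count (FDR 0.102), with at least 10 counts in every library (FDR 0.12), and without siNC replicate 1 (FDR 0.0515), siNC replicate 3 (FDR 0.0634) or siGPD1L replicate 3 (FDR 0.0999). NHP2, the remaining H/ACA core protein, was also a lower DEG in all 3 groups, with log2 fold changes of -0.91, -0.74 and -0.71 in siGABPA, siGPD1L and siBRD9. Reads of NHP2 can be shared with RMND5B on the other strand, since the strand setting of the counting is not given in the sources used here.

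**Figure D2:**
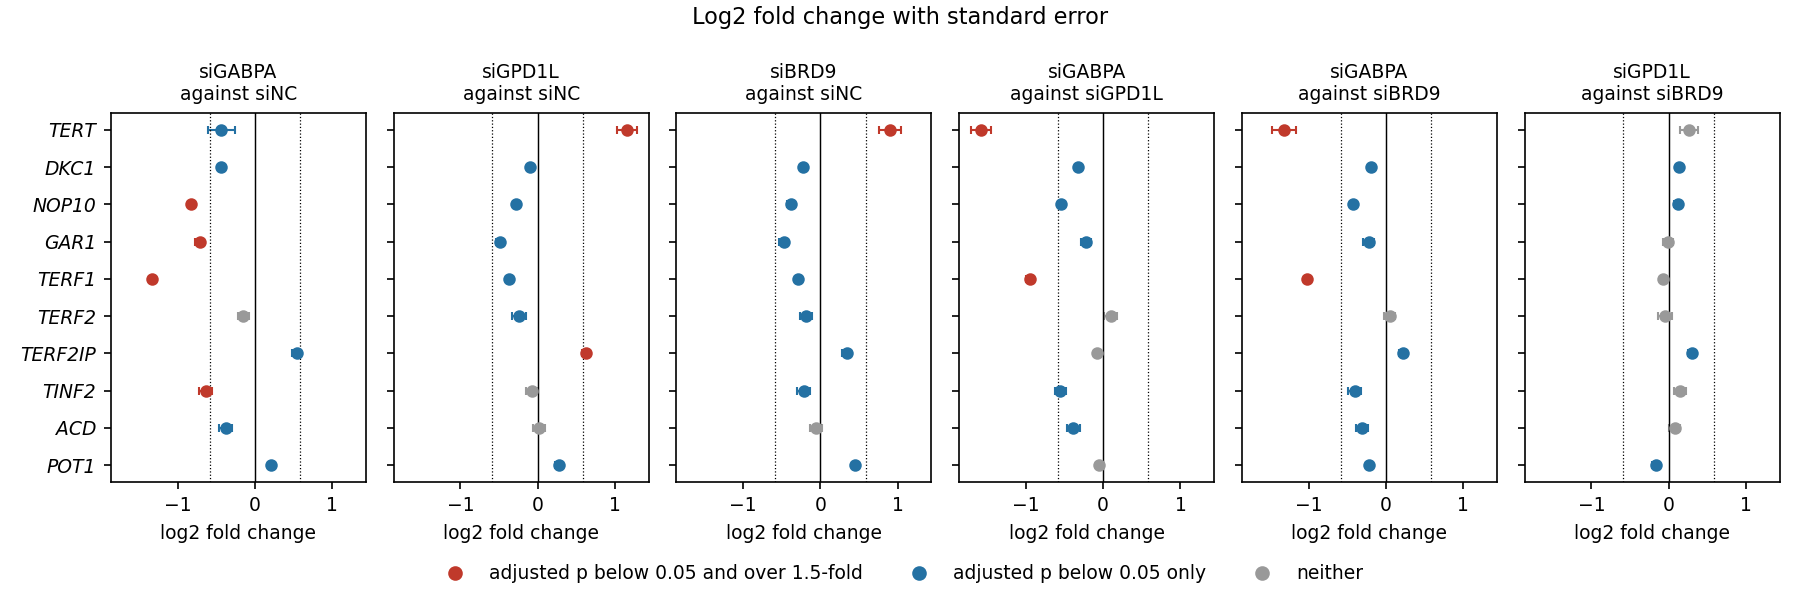
The log2 fold change of each gene is plotted with its SE for the 6 comparisons between groups; dotted lines mark a fold change of 1.5, and colour separates DEGs, genes past the FDR alone and the others. TERT lies to the right of 0 in siGPD1L and siBRD9 against siNC, and TERF1 lies beyond the fold threshold in each of the 3 comparisons with siGABPA.

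Of the shelterin genes, those for TERF1 and TINF2 were lower DEGs in siGABPA, whereas TERF2IP and POT1 rose in all 3 groups. TERF1, which binds the double-stranded repeats, had 119.3, 115.9 and 110.04 CPM with siNC, 46.9, 46.3 and 44.6 with siGABPA, 87.6, 92.5 and 86.8 with siGPD1L, and 95.9, 91.5 and 92.2 with siBRD9. The siGABPA libraries held at most 40.8% of the siNC mean, and those of the other targeting groups 75.5% to 83.3%. The log2 fold change was -1.33 in siGABPA (SE 0.04, FDR 7.73e-15), the largest in size among the members in that comparison. It was -0.36 in siGPD1L (SE 0.04, FDR 8.38e-08) and -0.29 in siBRD9 (SE 0.04, FDR 3.85e-06). TERF1 was lower in siGABPA than in siGPD1L by -0.95 (SE 0.04, FDR 5.93e-16) and than in siBRD9 by -1.02 (SE 0.04, FDR 4.24e-16). Its 5 pseudogenes in the table held 154 counts over all libraries, 0.606% of the 25406 of TERF1.

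TERF2, which shapes and shields the chromosome end, had 17.4, 18.8 and 17.5 CPM with siNC, 15.4, 16.9 and 16.2 with siGABPA, 17.2, 13.3 and 14.98 with siGPD1L, and 16.2, 15.9 and 14.8 with siBRD9. All targeting libraries lay below siNC, by small margins. The log2 fold changes were -0.15 (SE 0.07, FDR 0.0684) in siGABPA, -0.24 (SE 0.09, FDR 0.0227) in siGPD1L and -0.18 (SE 0.08, FDR 0.0408) in siBRD9, and the siGPD1L and siBRD9 calls were lost in several alternatives, among them library totals as the only scaling (FDR 0.523 and 0.526).

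TINF2, the link between the shelterin subunits, had 19.1, 21.6 and 22.8 CPM in siNC and 15.01, 12.6 and 13.3 in siGABPA. It had 20.5, 19.4 and 20.3 CPM in siGPD1L and 17.0, 17.2 and 20.2 in siBRD9, both overlapping siNC. Its log2 fold change in siGABPA was -0.64 (SE 0.09, FDR 2.67e-06), and it was no DEG without siGABPA replicate 2, at -0.57. In siBRD9 it was -0.22 (SE 0.08, FDR 0.0291), and in siGPD1L -0.07 (SE 0.07, FDR 0.383). The siBRD9 value lost its significance with DESeq2 (FDR 0.052), with total counts only (-0.09, FDR 0.352), and without siNC replicate 2 (FDR 0.0543), siNC replicate 3 (0.132), siBRD9 replicate 1 (0.142) or siBRD9 replicate 2 (0.116).

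ACD, the recruiter of telomerase, had 20.01, 17.5 and 19.2 CPM in siNC and 15.2, 15.7 and 12.8 in siGABPA, a log2 fold change of -0.38 (SE 0.09, FDR 0.000691), which library totals as the only scaling reduced to -0.16 (FDR 0.0942). It had 17.6, 19.4 and 20.1 CPM in siGPD1L and 18.6, 18.5 and 17.1 in siBRD9, within or next to the siNC range. The log2 fold changes there were 0.02 (95% interval -0.14 to 0.17, FDR 0.867) and -0.05 (95% interval -0.20 to 0.09, FDR 0.539). ACD shares exon sequence with RLTPR (CARMIL2) on the other strand, which fell in siGABPA with a log2 fold change of -0.91 (FDR 2.02e-05) and had 0.17 and 0.14 (FDR 0.243 and 0.388) in siGPD1L and siBRD9.

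TERF2IP had 34.5, 33.2 and 30.9 CPM with siNC, 44.8, 48.3 and 50.4 with siGABPA, 49.4, 51.6 and 50.4 with siGPD1L, and 40.6, 41.8 and 41.2 with siBRD9. All targeting libraries were above siNC. The log2 fold changes were 0.54 (SE 0.06, FDR 9.72e-08), 0.63 (SE 0.05, FDR 5.39e-10) and 0.34 (SE 0.06, FDR 2.45e-05) in siGABPA, siGPD1L and siBRD9. Only the value of siGPD1L exceeded 1.5-fold, and without siNC replicate 3 it was 0.58, just under it. The value of siGABPA passed 1.5-fold, as a higher DEG, without siGABPA replicate 1 (0.60), with at least 10 counts in every library (0.60) and with total counts only (0.76). TERF2IP shares exon sequence with KARS, a lysyl-tRNA synthetase gene on the other strand, which was a lower DEG in the same groups at -1.06, -0.68 and -0.70.

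POT1 had 56.1, 62.3 and 56.2 CPM with siNC, 67.6, 68.7 and 66.0 with siGABPA, 70.4, 66.3 and 74.1 with siGPD1L, and 81.04, 78.3 and 77.2 with siBRD9. All targeting libraries were above siNC, and those of siBRD9 above all others. Its log2 fold changes were 0.21 (SE 0.05, FDR 0.000459) in siGABPA, 0.28 (SE 0.05, FDR 4.83e-05) in siGPD1L and 0.45 (SE 0.05, FDR 6.99e-08) in siBRD9. The antisense gene POT1-AS1 overlaps its exons and had 0.40 (FDR 0.00653), -0.12 (FDR 0.456) and -0.15 (FDR 0.352).

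To compare levels between the genes, CPM was divided by the kilobases of annotated exon. This length joins the exons of all annotated transcripts of a gene and can exceed that of its mRNA. The order between genes therefore depends on the annotation. In siNC the order was NOP10 (153.0 ± 3.22 CPM per kb), DKC1 (47.2 ± 1.10), GAR1 (27.7 ± 0.65), TERF1 (13.03 ± 0.53), POT1 (9.87 ± 0.60), TERF2IP (9.72 ± 0.54), TINF2 (7.81 ± 0.70), ACD (5.87 ± 0.39), TERF2 (3.19 ± 0.14) and TERT (0.765 ± 0.096). The libraries of POT1 and TERF2IP overlapped there, and those of every other pair of neighbours did not. The H/ACA genes led and TERT was last in every group. TERF1 moved from position 4 in siNC to position 6 in the other groups, and in siGABPA, at 5.199 ± 0.14 CPM per kb, its libraries overlapped those of TINF2 (5.03 ± 0.46), which in turn overlapped ACD (4.52 ± 0.49). In siGPD1L and siBRD9 TERT reached 1.70 ± 0.04 and 1.41 ± 0.16 CPM per kb, still below TERF2 at 2.70 ± 0.35 and 2.78 ± 0.13.

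**Figure D3:**
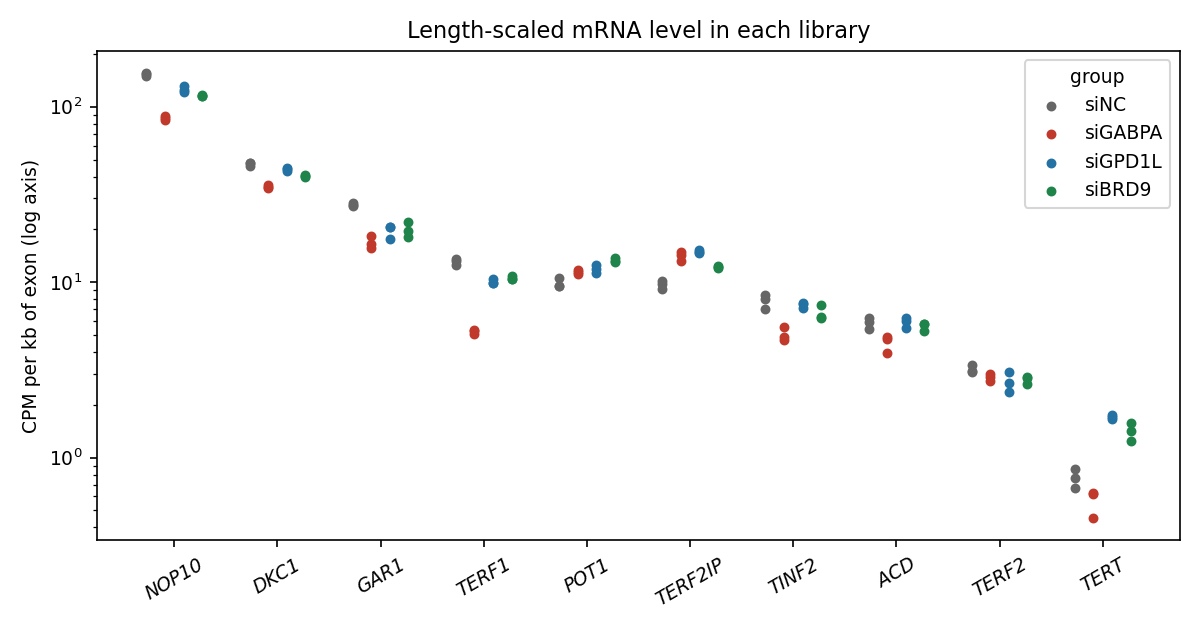
The length-scaled level (CPM per kb of annotated exon, log axis) of each gene is plotted for every library, coloured by siRNA group and ordered by the siNC mean. NOP10 is at the top and TERT at the bottom in all groups, with 153.0 and 0.765 CPM per kb in siNC.

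Promoters of 8 of the 10 genes, all but TERF1 and TERF2, were matched among RefSeq promoters (GRCh38.p14, 250 bases before to 50 after the start). These are letters of the reference genome and not of 786-O cells. The study describes TERT promoter mutations as creating new ETS motifs. The search therefore does not cover the mutated TERT promoter of this line. The letters CCGGAAG, an ETS core with its flanks, searched on both strands, occurred in 4 of the 8. It occurred in 10.3% of all promoters, in 12.2% of all genes with a promoter in the table, and in 21.6% of those among them tested for siGABPA against siNC. The 30-base stretches that hold them are shown because 3 of these genes (NOP10, GAR1 and TINF2) were lower DEGs in siGABPA and the other (TERF2IP) rose; capitals mark CCGGAAG or its reverse complement CTTCCGG, each sequence reads 5′ to 3′ along the strand of its gene, and the match begins 42, 28, 8 and 59 bases before the start, in that order. TINF2 has 2 starts in the table, and counted from the other one the match begins at base 44 after the start.
NOP10, chr15:34343160-34343189, minus strand: ggagagagagaCTTCCGGttatgcaggaag
GAR1, chr4:109815471-109815500, plus strand: ttgccgcagcaCTTCCGGgacgtcgtgctg
TINF2, chr14:24242624-24242653, minus strand: gcaagggaagctagtagcggagCCGGAAGt
TERF2IP, chr16:75647703-75647732, plus strand: aagccccacctCTTCCGGgggagagggggc

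A longer match, CCGGAAGT, which contains the first, was found in NOP10, GAR1 and TINF2 and in 4.14% of all promoters or 4.95% of genes. Among genes tested for siGABPA against siNC with a promoter in the table, CCGGAAG was present in 27.1% of 1572 lower DEGs, 11.6% of 1793 higher DEGs and 23% of 6822 other genes. The shares were 20.8%, 12.4% and 24.4% in siGPD1L and 22.2%, 12.2% and 23.7% in siBRD9. The E-box CACGTG, the letters that MYC can bind, was found in the promoters of TERT, NOP10 and GAR1 and in 7.26% of all promoters or 8.77% of genes. Such matches describe letters, and binding at them was not examined here.

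The known regulators of TERT transcription were described from a list of 28 genes, all of them tested. In siGABPA 5 were higher and 5 lower DEGs, in siGPD1L 8 and 7, and in siBRD9 7 and 1. The lower ones include GABPA in all 3 groups, the target of siGABPA and the 1 lower DEG of siBRD9. The DEGs of the list made up 35.7%, 53.6% and 28.6% of the tested regulators, beside 36.5%, 35.8% and 28.2% of all genes tested in the same comparisons. The median log2 fold change over the list was -0.08, -0.00455 and 0.01 in that order. ETS1 had a log2 fold change of -0.06 (SE 0.03, FDR 0.0895) in siGABPA, and rose by 1.10 (SE 0.03, FDR 4.47e-17) in siGPD1L and 1.01 (SE 0.04, FDR 4.28e-14) in siBRD9. Both ETS1 and the regulator MYC were chosen for description after their values were seen. MYC rose by 0.55 in siGABPA, 0.996 in siGPD1L and 0.87 in siBRD9 (SE 0.04 or less, FDR 5.98e-11, 4.44e-16 and 1.77e-13).

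The PEA3-family ETS genes ETV4 and ETV5 were higher DEGs in all 3 groups. ETV4 rose by 1.52, 2.98 and 2.74 and ETV5 by 0.97, 1.39 and 1.42 in siGABPA, siGPD1L and siBRD9. Of the partners with which GABPA forms its complex, GABPB1 had 0.29 (FDR 4.98e-05) in siGABPA, -0.23 (FDR 0.00105) in siGPD1L and -0.25 (FDR 0.000773) in siBRD9, and GABPB2 had 0.42 (FDR 0.000117), -0.62 (FDR 6.56e-06) and -0.45 (FDR 0.000255). KLF4 and EPAS1, which encodes HIF-2alpha, rose in all 3 groups, KLF4 by 3.12, 3.17 and 2.52 and EPAS1 by 1.08, 1.30 and 1.65. E2F1, a cell-cycle factor, fell in siGABPA (-1.12) and siGPD1L (-0.63) and had 0.02 (FDR 0.652) in siBRD9. The part of any of these factors in the TERT level was not tested.

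**Figure D4:**
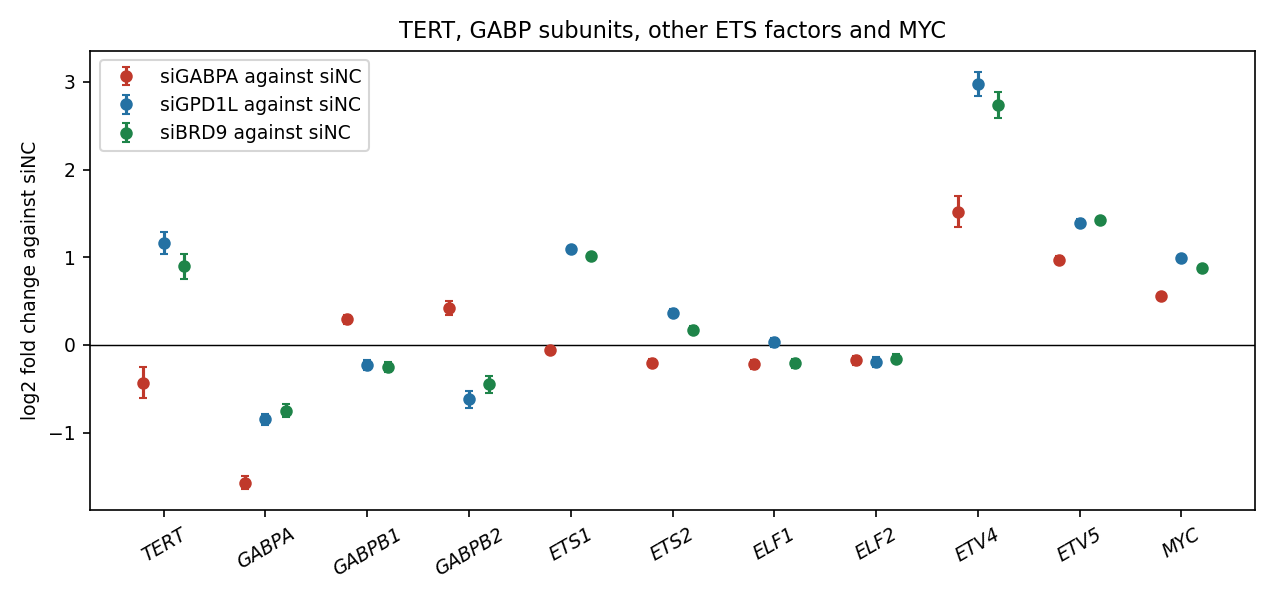
Log2 fold changes against siNC (points, with SE) of TERT, the GABP subunits, other ETS genes and MYC are plotted for the 3 targeting siRNAs, which share the siNC libraries. GABPA is below 0 in all 3, at -1.57, -0.85 and -0.75, while TERT is below 0 in siGABPA and above 0 in siGPD1L and siBRD9.

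TERT lies near BRD9 on the short arm of chromosome 5, with 360322 bases between them (GRCh38, BRD9 at chr5:850291-892824). Of 18 listed genes around TERT, 12 were tested in the siBRD9 comparison, where 2 were higher and 3 lower DEGs, one of the lower being BRD9 itself (log2 fold change -1.99, FDR 1.63e-16). That is 41.7% of the 12, beside 28.2% of all genes tested (16.7% higher and 11.5% lower). Another of the lower DEGs, ZDHHC11 (-0.62, FDR 0.016), overlaps exons of BRD9 on the same strand, so its reads and those of the targeted gene may not be separate. CLPTM1L, 22674 bases away on the upstream side of TERT, fell in all 3 groups, at -0.24, -0.36 and -0.16 in siGABPA, siGPD1L and siBRD9, while SLC12A7, 141111 bases away on the other side, rose by 0.75, 0.66 and 0.73. The expressed neighbours thus moved in both directions.

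**Figure D5:**
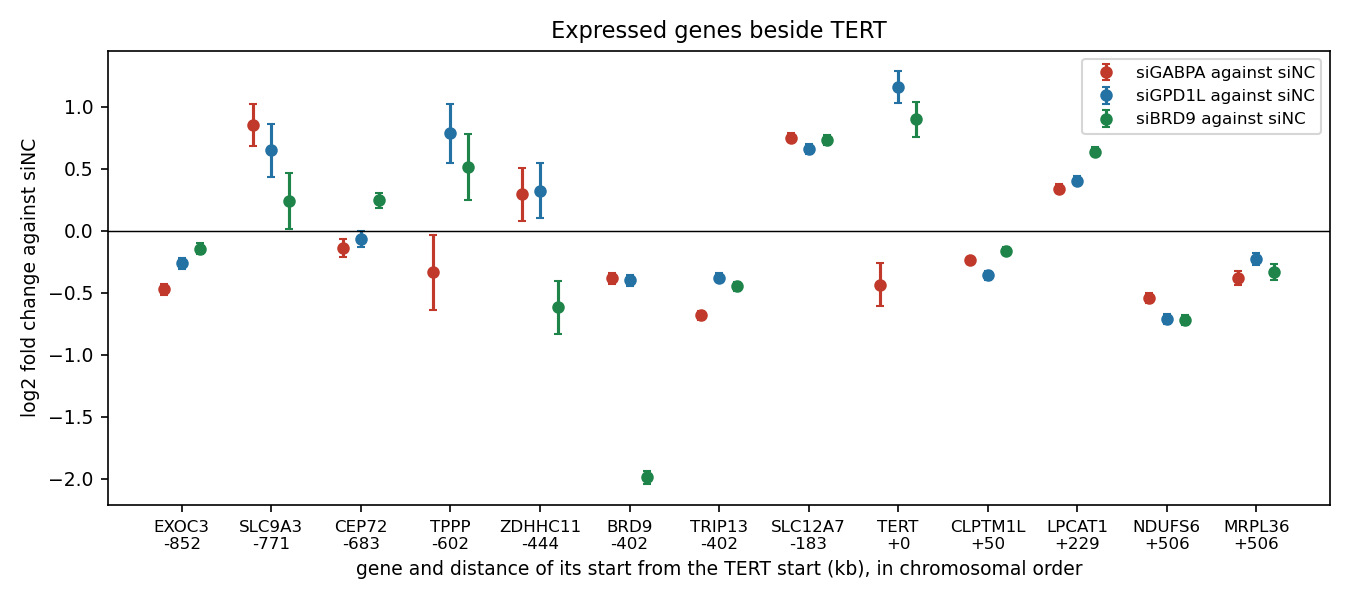
Log2 fold changes against siNC (points, with SE) of TERT and 12 expressed genes around it are plotted in chromosomal order for the 3 targeting siRNAs, with the distance of each gene's start from the TERT start (kb) under its name. TERT lies at 1.16 in siGPD1L and 0.90 in siBRD9 on the TMM scale, between SLC12A7 above 0 and CLPTM1L below 0.

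The genes whose profile over the 12 libraries was most like that of TERT (Pearson r of log2(CPM + 2), among 11460 other genes with a mean of at least 100 counts) were PMP22 (r = 0.981), LCORL (0.981), ARHGAP26 (0.98), SPIRE1 (0.979) and TBC1D9 (0.979). PMP22 had 18.6, 14.6, 58.7 and 48.6 CPM with siNC, siGABPA, siGPD1L and siBRD9. For TERF1 they were CAPZA2 (0.996), GCLM (0.995), IMPAD1 (0.995), RAD23B (0.994) and PAPOLA (0.993), and for DKC1 SLC25A15 (0.99), NCEH1 (0.988), PGM2 (0.985), URB1 (0.984) and LEPROTL1 (0.983). The points share the 4 groups and their scaling, so r is a description of likeness.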

How the data were processed

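The authors deposited a table of whole read counts per gene with no normalization, in 12 columns, 1 per library. The methods of the study name featureCounts for counting, whereas the submitters' processing notes name HISAT2, HTSeq, DESeq2 and hg38; the strand setting is not given in the sources used here. Groups and replicate numbers came from the sample titles. The members and gene lists were chosen with earlier results of these data known. Each pair of groups was fitted with edgeR 4.0.16 in R 4.3.3 (TMM scaling, filterByExpr, glmQLFit and glmQLFTest) on its own 6 libraries, and p-values were adjusted by Benjamini-Hochberg over every gene tested. A DEG passed FDR 0.05 and a fold change of 1.5. The genes named were the members, NHP2, the siRNA targets, up to 4 DEGs per direction of each list averaging 50 counts or more, and the 5 genes most like TERT, DKC1 and TERF1; ETS1, MYC, GABPB1, GABPB2, E2F1 in siBRD9, B2M, neighbours and overlapping genes were added after their values were seen. Positions, exon lengths and overlaps came from GENCODE release 29, which held 56868 of the 60448 identifiers. Replicate pairs differed by more than counting noise (chi-square per degree of freedom 2.51 to 3.91). The alternatives were RLE scaling, library totals only, DESeq2 1.42.0, limma 3.58.1 with voom, a filter of 1 count and of 10 counts in every library, 1 fit of all 12 libraries, a replicate block, omission of single libraries, FDR alone and counts relative to B2M (pseudocount 0.5). The procedure was tested on simulated data in which a small share of genes changed, evenly in both directions. That test does not cover changes as common as those in these libraries. Limits from counting cover counting error only.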

Additional observations from a re-analysis of the deposited data

How the results depend on the processing

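With FDR alone, without the fold threshold, the members called numbered 9, 8, 9, 7, 9 and 4 and the genes called 11734, 11400, 10413, 8960, 8708 and 6379 in siGABPA, siGPD1L and siBRD9 against siNC, siGABPA against siGPD1L and siBRD9, and siGPD1L against siBRD9. The fall of TERT in siGABPA was -0.216 with library totals as the only scaling (FDR 0.282), -0.443 with DESeq2 (FDR 0.0681) and -0.379 with at least 10 counts in every library (FDR 0.0613), and ranged from -0.529 to -0.284 with each library left out. TERT in siGPD1L against siBRD9 was 0.301 with library totals (FDR 0.0335) and ranged from 0.182 to 0.358 with each library left out. The members called in siGPD1L against siNC ranged from 1 to 2, with 1 without siNC replicate 3. Relative to B2M, an alternative chosen after seeing the data that lowers every gene by about the rise of B2M itself (1.37, 1.27 and 1.29), TERT was -1.82, -0.112 and -0.403 in siGABPA, siGPD1L and siBRD9 against siNC, TERF2IP -0.833, -0.647 and -0.953, and POT1 -1.16, -0.994 and -0.841. These signs follow from that shift and say nothing of the single genes. DKC1 in siGPD1L reversed to 0.076 with library totals (FDR 0.0466). That scaling moved the median of all genes to 0.242, 0.184 and 0.133 against siNC and raised the share of higher genes among the DEGs from 58.4%, 56.8% and 59.3% to 77.8%, 72.7% and 73.1%, and in siGABPA against siBRD9 from 59.8% to 70.4%. Of 900 single-gene alternatives 816 counted as unchanged and 9 turned the sign of a called value, all but DKC1 relative to B2M. Small values without a call could cross 0 and still count as unchanged. With each library left out, ACD in siGPD1L against siNC ranged from -0.0408 to 0.0784. In siGPD1L against siBRD9, GAR1 ranged from -0.0715 to 0.0649 and TERF2 from -0.154 to 0.0379. Of 188 alternatives for counts 175 stayed within 1.5 times.

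Replicate numbers did not pair the libraries, since 18 correlations between same-numbered libraries were -0.0919 to 0.0465. With replicate number as a block the calls of TERT were kept in all 6 comparisons (siGABPA against siNC -0.435, FDR 0.0458), and TERF2 in siBRD9 lost its call (FDR 0.0504). TERT rests on 59 to 232 counts a library, which limits its precision, and TERC could not be measured. For the other changes of call the cause was not tested.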

Other observations

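Other genes of telomere biology were described from lists named for their function. Of all genes tested against siNC, 36.5% were DEGs in siGABPA (21.3% higher, 15.2% lower), 35.8% with siGPD1L (20.4% higher, 15.5% lower) and 28.2% with siBRD9 (16.7% higher, 11.5% lower), and each list's share is given to be read against these. Of 19 tested genes of telomerase biogenesis and recruitment, the lower DEGs numbered 7, 6 and 4 for siGABPA, siGPD1L and siBRD9 against siNC and the higher 0, 1 and 0, where edgeR found 1, 2 and 2 genes of the list higher at FDR below 0.05 alone. DEGs in either direction were 36.8%, 36.8% and 21.1% of this list, beside 36.5%, 35.8% and 28.2% of all genes. Nearly all of those in the list were lower, whereas lower DEGs were 15.2%, 15.5% and 11.5% of all genes. The difference between the list and all genes was not tested. The list medians were -0.54, -0.18 and -0.33 on the log2 scale. PINX1, an inhibitor of telomerase, fell with log2 fold changes of -1.31, -1.14 and -1.15 for siGABPA, siGPD1L and siBRD9, the order kept below. GNL3L fell at -1.09, -1.20 and -1.06, TOE1, a deadenylase that trims TERC, at -1.02, -1.31 and -0.97, and RUVBL1, an ATPase that assembles the telomerase complex, at -1.03, -0.17 and -0.39. The higher DEG in siGPD1L was TEP1 (0.69, FDR 4.51e-08).

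Among 15 tested genes of the CST complex and telomere replication, OBFC1 (STN1), a CST subunit, rose by 0.62, 1.20 and 0.74, and POLA1, the catalytic subunit of DNA polymerase alpha, fell at -1.12, -1.27 and -0.70. The list held 4, 5 and 2 lower DEGs and 1 higher in each comparison, or 33.3%, 40% and 20% of its genes. FEN1, a flap endonuclease, was a lower DEG in siGABPA (-0.83) and siGPD1L (-0.70), and PIF1, a helicase that removes telomerase from ends, in siGPD1L (-0.95) and siBRD9 (-0.86).

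In the list of end protection and damage signalling (18 tested) there were 5, 5 and 4 lower DEGs and no higher one by edgeR, although 6, 8 and 9 genes were higher at FDR below 0.05 alone. These DEGs, all lower, were 27.8%, 27.8% and 22.2% of the list. Of all genes tested, 15.2%, 15.5% and 11.5% were lower DEGs, and 36.5%, 35.8% and 28.2% were DEGs in either direction. The difference between the list and all genes was not tested. PRKDC, the catalytic subunit of the DNA-dependent protein kinase, fell at -1.42, -1.19 and -0.67, XRCC5 (Ku80) at -1.24, -1.13 and -0.88, and XRCC6 (Ku70) at -1.02, -0.97 and -0.74. NBN, a subunit of the MRN complex that senses double-strand breaks, fell at -0.84, -0.93 and -0.76, in siBRD9 further than XRCC6 and PRKDC. Of 18 tested genes of alternative lengthening and telomeric chromatin, 2, 4 and 4 were higher and 1, 3 and 2 lower DEGs (16.7%, 38.9% and 33.3% of the list). SP100, a nuclear body protein, rose by 1.52, 1.5 and 1.33 and RMI2, a subunit of the BLM complex, by 1.24, 1.22 and 1.67, while the histone gene H3F3A fell at -0.97, -0.98 and -0.64. ATRX, a chromatin remodeller lost in many tumours that use this pathway, rose by 0.66 in siGPD1L and 0.90 in siBRD9. Its siNC libraries were widely spread, from 44.02 to 93.4 CPM, against 102.6 to 107.5 CPM in siGPD1L and 119.96 to 128.6 in siBRD9.

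The box C/D proteins, the counterpart of the H/ACA set, held 3, 2 and 2 lower DEGs of 4 (75%, 50% and 50%), too few genes to set against the shares of all genes. NOP58 fell at -1.19, -0.95 and -0.82 and NOP56 at -0.83, -0.74 and -0.69. The cell type markers had 10 of 21 genes tested, with 1 higher DEG in each comparison and 2, 2 and 1 lower (30%, 30% and 20% of those tested).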
